A study of Oryza sativa Japonica Group with 4 samples.

Results

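Calcium sensors and calcium pumps were taken as the rice genes that a RefSeq gene table of assembly ASM3414082v1 names CAM (calmodulin), CML (calmodulin-like protein), CBL (calcineurin B-like protein) or ACA (autoinhibited Ca2+-ATPase). The table names 44 such genes, and 38 of them, of the 17905 genes measured, had a probe set that the array annotation assigns to 1 gene. They comprised 3 CAM, 23 CML, 7 CBL and 5 ACA genes. When a gene had several such probe sets, the one with the highest mean over the 4 arrays stood for it.

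Seedlings of the rice cultivar TNG67 were raised in hydroponics without nitrogen until they were 17 days old. They then received glutamate at 2.5 mM for 30 min (+Glu) or stayed without nitrogen as the untreated control (−N). Root RNA was measured on 2 Affymetrix rice arrays per group. Both groups were therefore starved of nitrogen before the treatment. The study describes a move of −N seedlings to fresh medium for its amino acid assays, but not in its array methods. The groups may therefore differ in handling as well as in the amino acid. The labels call the arrays of a group biological replicates, and how many plants were pooled into a sample is not given in the sources used here.

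Calcium enters the cytosol in short pulses after many stimuli, and glutamate is known to open glutamate receptor-like calcium channels in plants. Calmodulins and calmodulin-like proteins bind calcium through EF-hand motifs and then bind target proteins, whereas CBL proteins bind calcium and recruit a family of kinases, the CIPKs. ACA pumps use ATP to move calcium out of the cytosol, and the binding of calmodulin relieves their own inhibition, so that sensors and pumps lie on the same feedback loop.

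Of the 38 genes, ACA7, CML15 and CML31 were at least 2-fold higher in +Glu with an unadjusted p under 0.05 from limma, a linear model fitted to the log2 intensities of all genes with a shared estimate of the spread. No member was 2-fold lower. In the background of all genes, 1.68% passed the thresholds upward and 0.0447% downward. After quantile normalization the members called were ACA7 and CML15. At the same p but without the 2-fold cutoff, 8 members were higher and 2 were lower in +Glu, and the background shares were 3.81% (682 genes) and 0.374% (67 genes). After quantile normalization these counts were 6 higher and 4 lower for the members and 810 higher and 238 lower for all genes. With the p values of limma adjusted over all 17905 genes by the method of Benjamini and Hochberg, 0 members and 0% of all genes passed 0.05, and 0 passed with a test of each gene on its own spread. The lowest adjusted p was 0.505 over all genes and 0.571 over the members. The differences below are accordingly given as measured values of 2 arrays against 2, and none of them passed a test across the genome.

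**Figure D1:**
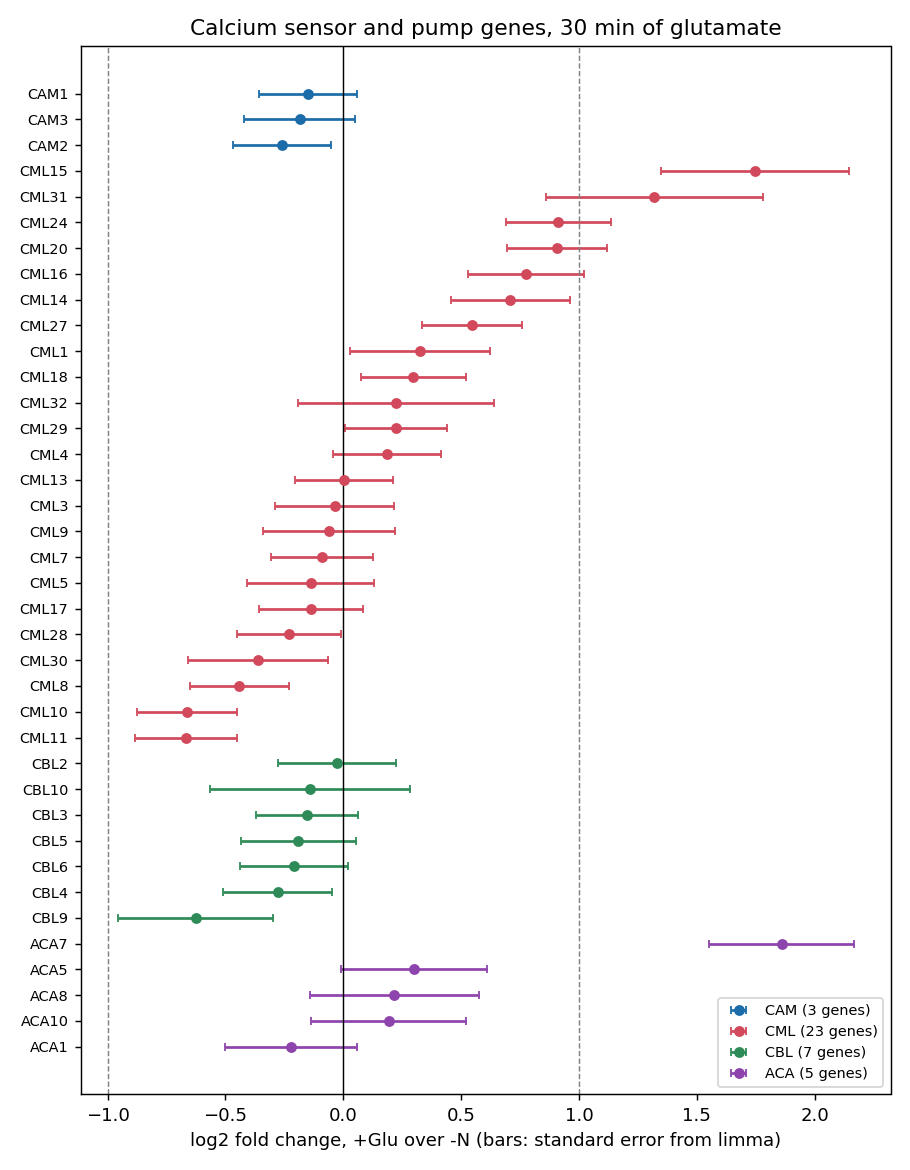
Log2 fold change (+Glu over −N, horizontal axis) of each of the 38 genes, grouped as CAM, CML, CBL and ACA; points are estimates and bars are standard errors from limma (n = 2 arrays a group). CML15 at 1.75 and ACA7 at 1.86 lie farthest to the right, and every CAM and CBL estimate lies below 0 on the deposited scale; after median centring CBL2 was at 0.0019.

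The intensities of the 2 groups did not overlap in 19 members. In 10 members (26.3%) each +Glu array exceeded each −N array, and in 9 (23.7%) each was lower, while the background shares were 14.9% above and 10.1% below. This balance moved with the scaling of the arrays. After quantile normalization 10 members were above and 15 below, and among all genes 2901 were above and 2742 below. After centring each array on its median, 11 members were above and 8 below, and among all genes 3859 were above and 1464 below. The members' log2 fold changes were positive in 17 and negative in 21, with a median of −0.048, whereas 55.2% of all genes were positive and 44.8% negative, with a median of 0.026.

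**Figure D2:**
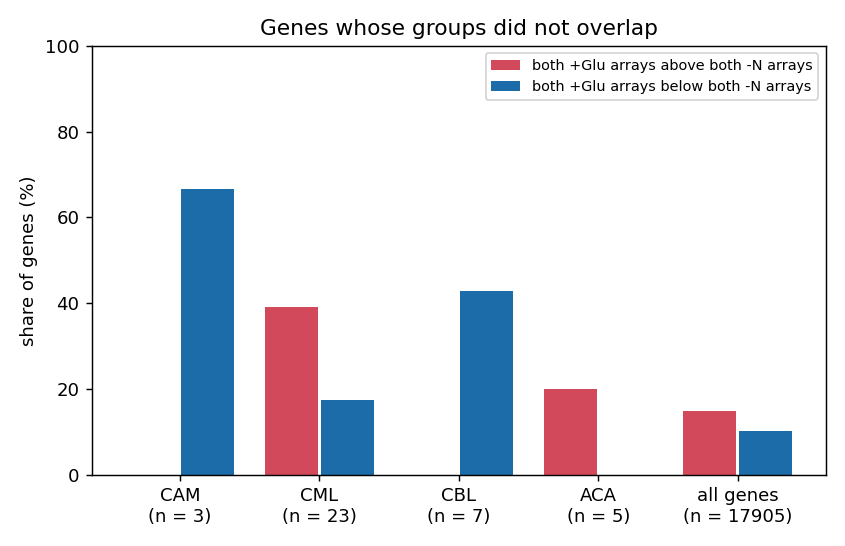
Share of genes (%, vertical axis) in which each +Glu array exceeded each −N array, or was lower than each, for each family and for all genes. CML genes were above in 39.1% and all genes in 14.9%; no CAM or CBL gene was above.

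Among the pumps, ACA7 stood apart from the other 4 genes. It had intensities of 38.3 and 26.6 in −N and of 96.7 and 138.9 in +Glu. Each glutamate array exceeded the brighter −N array more than 2-fold, although the gene was dim in −N. The means were 32.5 ± 8.27 in −N and 117.8 ± 29.9 in +Glu (SD, n = 2). The log2 fold change was 1.86 with a standard error of 0.31, or 3.63-fold (limma, unadjusted p = 0.00133, adjusted p = 0.571), and its 95% interval reached from 1.09 to 2.63. With a pseudocount of 16 added to each intensity, the log2 fold change of ACA7 was smaller, at 1.46 (limma, unadjusted p = 0.00242). The study lists calcium-transporting ATPases induced by glutamate by locus number, which the gene table used here does not hold. ACA7 may be among them, since a listed gene also lies on chromosome 10, so its place here is not independent evidence. Another listed pump lies on a chromosome without any ACA gene measured here. By quantitative RT-PCR the study found that pump preferentially induced by glutamate, so ACA7 is not the only pump reported to rise.

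The other 4 pump genes overlapped between the groups. ACA5 had log2 fold change 0.30 (unadjusted p = 0.372 from limma), with intensities from 61.5 to 93.9 in −N and from 80.4 to 108.9 in +Glu. ACA8 had 0.22 (unadjusted p = 0.568) and ACA10 0.19 (unadjusted p = 0.581), also from limma. ACA1, the lowest of the family, gave 13.4 and 9.11 in −N and 10.4 and 8.62 in +Glu. Its log2 fold change was −0.22 (limma, unadjusted p = 0.462), at intensities below the array medians of 19.3 to 23.9, where there is little signal. In ACA5, ACA8 and ACA10, replicate 2 was brighter than replicate 1 in both groups. The array medians were also higher in replicate 2, at 20.1 and 23.9 in −N and 19.3 and 23.9 in +Glu. The median of the family was 0.22. Without −N replicate 1 it was −0.0055, and without −N replicate 2 it was 0.61, so that the sign of this median rested on 1 array. The median of all genes moved the same way, from 0.026 to −0.13 and to 0.20. The 95% intervals of ACA5, ACA8 and ACA10 reached up to 1.08, 1.11 and 1.02 on the log2 scale, so that these arrays leave room for a level 2-fold higher in +Glu.

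The CML family, the largest of the 4, held 7 of the 8 members higher at this p and both members that were lower. Over its 23 genes the median log2 fold change was 0.19. Values ranged from −0.67 in CML11 to 1.75 in CML15. The +Glu pair lay wholly above the −N pair in 9 genes (39.1%) and wholly below it in 4, and the groups overlapped in 10.

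CML15 gave 287.6 and 135.3 in −N and 603.5 and 725.4 in +Glu. Both glutamate arrays were above both others, but the −N arrays lay 2.13-fold apart. The log2 fold change was 1.75 with a standard error of 0.40, or 3.35-fold (limma, unadjusted p = 0.00598, adjusted p = 0.723). CML31 gave 1619 and 646.4 in −N and 2327 and 2806 in +Glu. Here too −N replicate 2 was the lowest array, 2.50-fold below −N replicate 1. The log2 fold change of CML31 was 1.32 with a standard error of 0.46, or 2.50-fold (limma, unadjusted p = 0.0321, adjusted p = 1). Without −N replicate 2 it was 0.66, below the 2-fold cutoff, and without +Glu replicate 2 it was 1.19 with unadjusted p = 0.0852 in limma. After quantile normalization its p was just past the threshold, with unadjusted p = 0.0504 in limma.

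CML24, CML20, CML16 and CML14 were higher in +Glu by less than 2-fold. CML24 had 72.9 and 71.5 in −N, against 123.8 and 149.4 in +Glu, a log2 fold change of 0.91 with a standard error of 0.22 (limma, unadjusted p = 0.00801). CML20 had 75.1 and 68.8 in −N, against 130.2 and 139.3 in +Glu, a log2 fold change of 0.91 with a standard error of 0.21 (limma, unadjusted p = 0.00673). In both genes the −N replicates lay closer together than in CML15 or CML31, 1.02-fold apart in CML24 and 1.09-fold in CML20. CML16 had 2247 and 2830 in −N, against 3926 and 4754 in +Glu, with a log2 fold change of 0.78 (limma, unadjusted p = 0.0224). CML14 had 465.8 and 358.3 in −N, against 606.0 and 735.9 in +Glu, with a log2 fold change of 0.71 (limma, unadjusted p = 0.0342, and unadjusted p = 0.0545 after quantile normalization). In all 4 genes the dimmer +Glu array was brighter than the brighter −N array. CML27, named after its values were seen because it was the remaining member under the p threshold, had 4348 and 4824 in −N and 6765 and 6605 in +Glu, a log2 fold change of 0.55 (limma, unadjusted p = 0.0466). Its other, dimmer probe set gave 0.49.

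Glutamate-treated roots were lower in another part of the family. CML11 gave 214.7 and 228.5 in −N and 149.0 and 130.9 in +Glu. CML10 gave 2177 and 2363 in −N and 1413 and 1451 in +Glu. In both genes the 2 groups were apart by more than the spread of either. The log2 fold changes were −0.67 for CML11 with a standard error of 0.22 (limma, unadjusted p = 0.0250, adjusted p = 0.975) and −0.66 for CML10 with a standard error of 0.21 (limma, unadjusted p = 0.0228, adjusted p = 0.955). A second probe set of CML10, at 4.44 to 5.06 on all arrays, was too dim to bear on this. CML8 had 827.0 and 866.4 in −N, against 604.7 and 642.8 in +Glu, without overlap, and its log2 fold change of −0.44 had unadjusted p = 0.0854 in limma, against unadjusted p = 0.0341 after quantile normalization. CML30, at −0.36, overlapped between the groups because −N replicate 1 was at 878.8 and +Glu replicate 2 at 925.0 (limma, unadjusted p = 0.275).

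**Figure D3:**
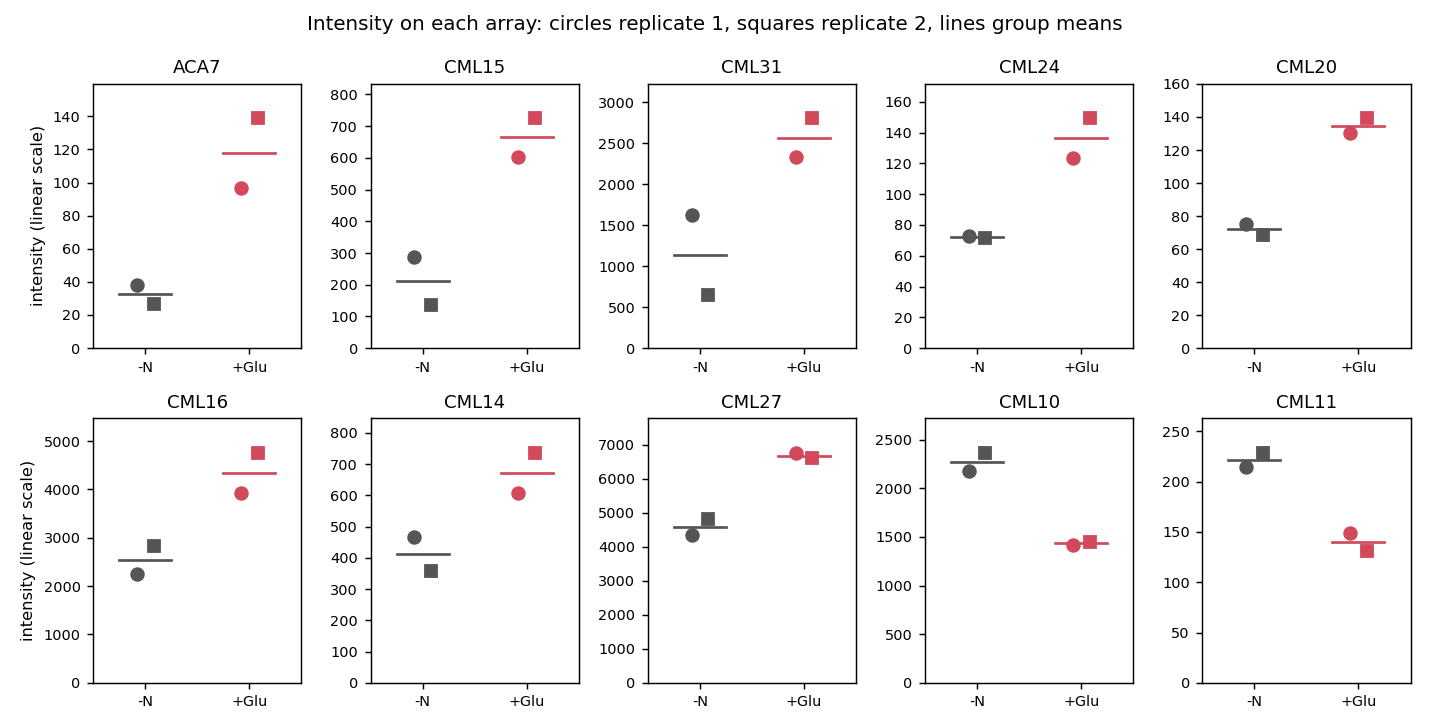
Intensity on each array (linear scale, vertical axis) in −N and +Glu for the 10 members with an unadjusted p under 0.05; circles are replicate 1, squares replicate 2, and lines group means. The +Glu pair lies wholly above the −N pair in 8 genes and wholly below it in CML10 and CML11.

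The remaining 12 CML genes had log2 fold changes from −0.23 to 0.32 and limma p values of at least 0.234. They included CML1, a calmodulin-like protein with a prenylation motif, at 0.32 and overlapping between groups. The array groups of CML18 and CML29 were apart upward by 0.30 and 0.22, and those of CML28 were apart downward by −0.23. The intensities of CML3 and CML32, from 5.05 to 17.0, were below the array medians of 19.3 to 23.9, and CML3 was listed at 13.2 in both replicate 2 arrays. CML9, which neighbours CAM2 with 0 genes of the table between them, had a log2 fold change of −0.059, beside −0.26 for CAM2. The genes named among these 12 were singled out after their values were seen.

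The 3 typical calmodulins had slightly lower means in +Glu. CAM2 gave 3167 and 3119 in −N and 2685 and 2571 in +Glu. CAM1 gave 5511 and 5362 in −N and 4760 and 5038 in +Glu. Both genes were below in both glutamate arrays, by a margin larger than the difference between replicates. The log2 fold changes were −0.26 for CAM2 with a standard error of 0.21 (limma, unadjusted p = 0.266) and −0.15 for CAM1 with a standard error of 0.21 (limma, unadjusted p = 0.501). CAM3 ranged from 5796 to 7474 in −N and from 5752 to 5834 in +Glu and overlapped, with a log2 fold change of −0.18 (limma, unadjusted p = 0.467). The 95% intervals of the family lay between −0.78 and 0.41, which spans 0 and stops short of a 2-fold difference in either direction. After centring on the array median, all 3 CAM genes overlapped between groups. The gene table pools several calmodulin names into the CAM1 entry, and transcripts of near-identical calmodulin genes may share probes.

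The 7 CBL genes all had negative log2 fold changes, from −0.63 to −0.028, with a median of −0.19, although CBL2 turned to 0.0019 after centring on the array median. On the deposited scale none had a limma p under 0.05, and the +Glu pair lay wholly below the −N pair in CBL3, CBL4 and CBL9. CBL9 had the most negative value, with 61.1 and 103.7 in −N and 45.5 and 58.4 in +Glu. Its −N replicates were 1.70-fold apart, and the upper +Glu array was close to the lower −N array. The log2 fold change was −0.63 with a standard error of 0.33 (limma, unadjusted p = 0.111), and without −N replicate 1 it was −1.01 with unadjusted p = 0.00230. Rescaling brought CBL9 under the threshold, with unadjusted p = 0.0352 in limma after quantile normalization and unadjusted p = 0.0450 after median centring. The probe set of CBL9 is of a kind that can bind several transcripts, and its other probe set overlapped between groups at −0.29.

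CBL2 gave 535.8 and 694.5 in −N and 544.5 and 657.4 in +Glu. The glutamate values lay inside the −N range, and the log2 fold change was −0.028 (limma, unadjusted p = 0.915). CBL4, the rice sensor of the salt overly sensitive pathway, was at −0.28 and CBL3 at −0.15 (limma, unadjusted p = 0.279 and unadjusted p = 0.508). CBL5, CBL6 and CBL10 overlapped, with −0.19, −0.21 and −0.14 (limma, unadjusted p = 0.468, unadjusted p = 0.401 and unadjusted p = 0.754). The 95% intervals of the family ran from −1.45 in CBL9 to 0.93 in CBL10.

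Replicates with the same number were alike in a way that bears on these values. The deposited columns of −N replicate 1 and +Glu replicate 1 shared 2108 probe sets with exactly the same value, and those of −N replicate 2 and +Glu replicate 2 shared 2410. Each pair of arrays with different numbers shared 0. The cause was not tested, and the labels do not say what a replicate number stands for. The difference of +Glu and −N was therefore also taken within each number, an alternative added after the shared values were seen.

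Within both numbers, 14 members were higher (36.8%) and 17 were lower (44.7%) in +Glu, and the background shares were 30.7% and 21.9%. All 3 CAM genes and 6 of the 7 CBL genes were lower in both numbers, the exception being CBL2 at 0.02 and −0.08. Of the CML genes 11 were higher and 7 lower in both, and of the ACA genes 3 were higher and 1 lower. The medians of replicates 1 and 2 were −0.21 and −0.28 for CAM, 0.093 and 0.064 for CML, −0.20 and −0.20 for CBL, and 0.39 and 0.013 for ACA. Those of all genes were 0.091 and −0.025.

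CML15 and ACA7 were at least 2-fold higher within both numbers, as were 148 of all genes. For ACA7 the log2 differences were 1.34 and 2.38, and for CML15 they were 1.07 and 2.42. CML31 gave 0.52 in replicate 1 and 2.12 in replicate 2, so that its pooled value came mostly from replicate 2. CML24 gave 0.76 and 1.06, CML20 0.80 and 1.02, and CML16 0.81 and 0.75. For CML10 the differences were −0.62 and −0.70, and for CML11 −0.53 and −0.80. The 8 members called higher and the 2 called lower had the same sign in both numbers. This follows from their groups not overlapping and adds no further evidence.

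**Figure D4:**
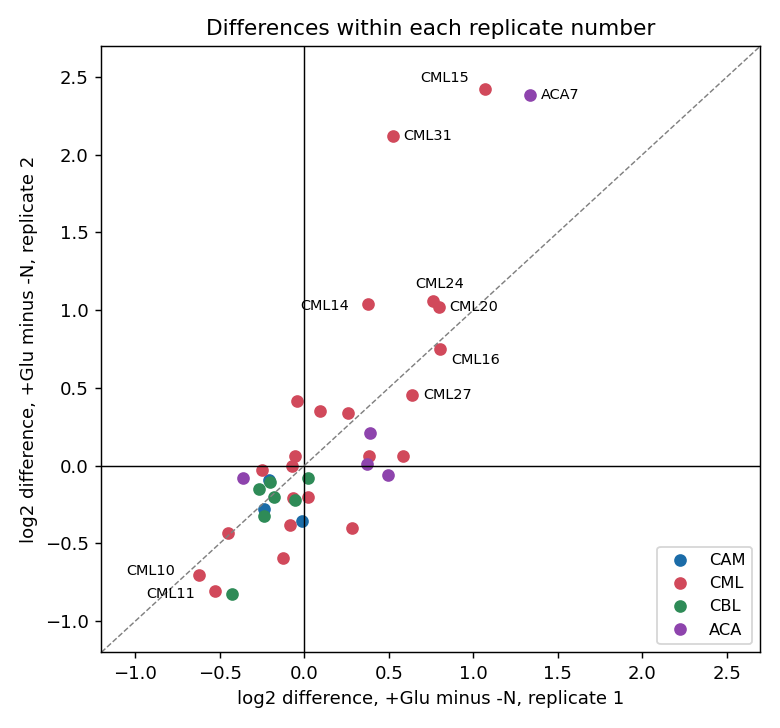
Log2 difference (+Glu minus −N) of each member within replicate 1 (horizontal axis) and within replicate 2 (vertical axis), coloured by family. ACA7 (1.34, 2.38) and CML15 (1.07, 2.42) lie farthest to the upper right; CAM and CBL genes lie near or below 0 on both axes.

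**Figure D5:**
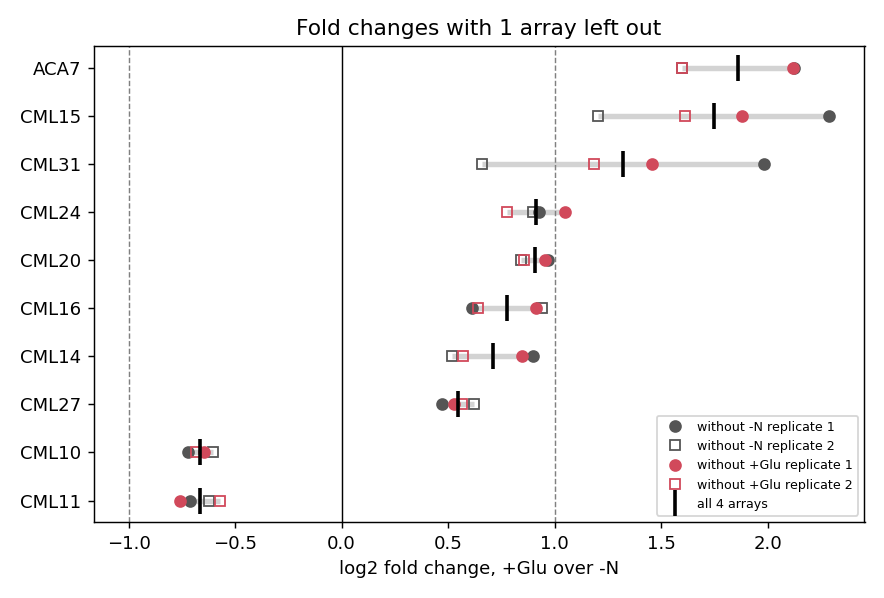
Log2 fold changes (+Glu over −N, horizontal axis) of members with each array left out in turn; each marker kind is 1 left-out array. ACA7 stayed between 1.60 and 2.12 and CML15 between 1.20 and 2.29, whereas CML31 went from 0.66 to 1.98.

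Leaving out each array in turn moved the members unequally. ACA7 stayed between 1.60 and 2.12 on the log2 scale and CML15 between 1.20 and 2.29. CML24 kept to values from 0.78 to 1.05 and CML20 to values from 0.84 to 0.97. ACA7 and CML15 had an unadjusted limma p under 0.05 in all 4 cases, with a highest p of 0.00877 and 0.0200. Each of the other 8 members called lost that threshold in at least 1 case: without +Glu replicate 2 the 8 all did, and without +Glu replicate 1 only CML31 and CML24 of them kept it. CML10, from −0.72 to −0.60, and CML11, from −0.76 to −0.57, stayed under the threshold only without −N replicate 1. The sign was the same in all 4 cases for 3 of 3 CAM, 16 of 23 CML, 5 of 7 CBL and 1 of 5 ACA genes. The fold change of CML31 in the comparison of all arrays thus depended on −N replicate 2. That array and −N replicate 1 differed at least 2-fold in 1728 genes, against 279 for the +Glu pair. Among the members, only CML15 and CML31 were 2-fold apart between the −N arrays, and none was between the +Glu arrays.

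Among 54 other genes of calcium signalling that were named in the table, kinases, channels, exchangers and binding proteins, 5 (9.26%) had an unadjusted limma p under 0.05, all higher in +Glu, beside 3.81% of all genes that were higher at this p. They were CPK4, CPK21 and CPK5 among the 20 calcium-dependent protein kinases and CIPK14 and CIPK16 among the 24 CBL-interacting kinases, chosen for naming after their values were seen. CPK4 gave 753.1 and 1005 in −N and 1485 and 2150 in +Glu and was the only one at least 2-fold higher, with a log2 fold change of 1.04. The median log2 fold change was 0.21 for the CPK genes and 0.011 for the CIPK genes, the kinases that the CBL sensors recruit. The remaining 10 genes, among them CAX calcium exchangers, GLR3.1 and TPC1, all had positive values, from 0.092 to 0.55, beside 55.2% of all genes, and 0 of them had a limma p under 0.05. GLR3.1 was the only glutamate receptor gene matched by name. The study's own list of such genes holds some that were lower and some that were higher in +Glu.

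The RNA came from whole roots, so fewer cells of a type and less RNA per cell cannot be told apart. Of 9 root markers measured, all overlapped between groups, and their summed intensity was 8397 and 12599 in −N and 9118 and 10426 in +Glu. Most of this sum was the silicon transporter Lsi1, at 7085 to 9275. The nitrate transporter NRT2.3 gave 327.1 and 1177 in −N and 236.5 and 340.4 in +Glu, a log2 fold change of −1.13 (limma, unadjusted p = 0.124). The silicon transporter Lsi2 gave 626.5 and 1303 in −N and 563.2 and 678.8 in +Glu, a log2 fold change of −0.55 (limma, unadjusted p = 0.216). In both genes −N replicate 2 was the highest array. The other root markers had log2 fold changes from −0.17 to 0.17. Of these, CASP1 gave 53.8 and 228.5 in −N and 136.9 and 105.8 in +Glu, so its −N replicates were 4.25-fold apart. The iron-phytosiderophore transporter YSL15 and the endodermal regulator SCR1 were below the array medians, at 5.58 to 12.0. Of 5 markers of green tissue, 4 overlapped, and the sum of all 5 was 9477 and 13407 in −N and 12317 and 10900 in +Glu, mostly from CAB2R at 8748 to 10778. This sum hides a wide −N spread in dimmer markers. In RBCS-C and RCA, −N replicate 2 was 3.85 and 3.35-fold above −N replicate 1. FBP1, matched by name and also called CFBP1, was 4.65-fold higher there but may not be particular to green tissue. CAB2R was 1.23-fold higher there, and RBCS1 was lower, at 4.57 and 4.01. Overlap with so wide a spread does not show that the groups were alike in cell types. The part of other cells in the members' differences was not tested.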

How the data were processed

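Per probe set and array the authors deposited a linear intensity. GCOS and RMA are named in the submitters' processing notes, and their versions and roles were not given in the sources used here. As RMA output is commonly log2 already, the scale was checked on the values before log2 of the deposited intensity was taken, with no pseudocount and no filter. A table of 57381 rows held 123 controls, which were left out. Of 57258 probe sets, 22436 are assigned to 1 gene by the array annotation, 95 to several and 34727 to none. All 17905 genes were found in the RefSeq gene table. The members ACA9, CBL1, CBL7, CML2, CML21 and CML22 have no probe set assigned to 1 gene and were not analysed here. CML1 and CML5 are also called OsCAM61 and OsCAM-2 in the table, the ACA5 entry also OsACA6, and the gene called CBL5 here also carries the name CBL2.

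The difference of +Glu and −N was fitted with lmFit and eBayes of limma 3.58.1 in R 4.3.3 over all 17905 genes, two-sided, without block, and p values were adjusted by Benjamini and Hochberg. The thresholds of the methods, at least 2-fold and p under 0.05, were applied to the unadjusted p. Figures came from matplotlib 3.10.9 and tables from pandas 2.3.3, under Python 3.11.15. The fit was tested on simulated independent arrays, which lack the likeness of arrays that share a replicate number, so that test does not cover this likeness. Members, gene lists and tests were chosen with earlier results of these data known. All CAM, CBL and ACA genes were named, and of the CML genes those past the 2-fold thresholds, the 6 highest and the 4 lowest. The 14 alternatives were a replicate block, leaving out each array, other normalizations, filters, a pseudocount of 16, other choices of probe set and Student's t-test. Arrays have no depth, and their number limits the precision. Without detection calls, dim probe sets cannot be placed above or below background.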

Additional observations from a re-analysis of the deposited data

How the results depend on the processing

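Student's t-test called 1 member at least 2-fold higher (ACA7), and 105 genes 2-fold higher and 4 lower of all genes. Without the 2-fold cutoff it called 4 members higher and 4 lower, beside 496 higher and 260 lower among all genes. CML15 and CML31 had unadjusted p = 0.0893 and unadjusted p = 0.190 in this test. Quantile normalization gave 4 members lower, 6 higher and 15 below both −N arrays. All genes gave 238 lower, 810 higher and 2742 below, with 14 genes 2-fold lower. CBL9 and CML8 were the members added. CML31 and CML14 lost the threshold, with unadjusted p = 0.0504 and unadjusted p = 0.0545 in limma. Averaging all probe sets of a gene left 1 member lower, beside 64 of all genes, and a pseudocount of 16 gave 3 genes 2-fold lower. Median centring turned CBL2 to 0.0019. The CAM median was −0.28 within replicate number 2.

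The replicate deviations of −N and +Glu correlated at 0.43 over genes and 0.34 over members. With the replicate number as a block, 8 members were higher and 4 lower at an unadjusted limma p under 0.05. CML8 (limma, unadjusted p = 0.0374) and CBL9 (limma, unadjusted p = 0.0177) were the members added. All genes gave 1405 higher and 308 lower at this p, against 682 and 67 without the block. At least 2-fold, 332 genes were higher and 15 lower, and 0 passed an adjusted p of 0.05. The labels give no more than a shared number.

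Leaving out each array in turn gave 2 to 4 members at least 2-fold higher, 0 to 1 lower, 2 to 9 higher and 0 to 4 lower at p under 0.05, 10 to 17 above and 11 to 20 below. All genes gave 196 to 618 2-fold higher and 14 to 252 lower, and the CAM median −0.25 to −0.17. The 252, the 20 and the 4 lower came without −N replicate 1, the 618, the 17 and the 9 without −N replicate 2, and the 196 and the 2 higher at p under 0.05 without +Glu replicate 2. Log2 fold changes that turned sign ranged from −0.22 to 0.16 for CBL2, −0.61 to 0.33 for CBL10, −0.0055 to 0.61 for ACA5, −0.23 to 0.66 for ACA8, −0.18 to 0.56 for ACA10 and −0.50 to 0.057 for ACA1. ACA7, CML15 and CML31 stood at 2.12, 2.29 and 1.98 on the log2 scale once −N replicate 1 was dropped. With −N replicate 2 dropped instead, they stood at 1.60, 1.20 and 0.66. A lone array is assumed to vary like the other group, so adjusted p values of such fits were not used to single out members. Among all 17905 genes, 3390 to 10350 were above and 2670 to 8715 below when each array was left out. The 10350 above came without −N replicate 2, beside 17 of 38 members, and the 8715 below without −N replicate 1, beside 20 of 38 members. The members' counts above and below thus moved together with the background. For these changes the cause was not tested. Results at intensities below the array medians (ACA1, CML3, CML32) have little signal over background, and 2 arrays a group limit every comparison.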
